A study of Bos taurus with 8 samples.

Results

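Cell cycle and DNA replication mRNA were examined in the bovine corpus luteum (CL), the progesterone-secreting gland that forms from the ovulated follicle. A list of 54 genes of the cell division cycle was matched by symbol, ignoring case, to a table of 13861 mRNA, and 48 of the 54 were found. Each of the 48, like each of the 13861, passed the filter on low values (a mean of at least 1 normalized count, which is the number of reads of an mRNA divided by 1 factor for its CL). The 6 genes not analysed here, MKI67, TOP2A, CCNB1, BUB1B, CENPE and FOXM1, all belong to mitosis. The CL came from Holstein heifers on day 17 after estrus. Of the 8 animals, 4 had not been bred and were in the estrous cycle (cyclic, replicates 1 to 4), and 4 had been bred and were pregnant (pregnant, replicates 1, 2, 4 and 5). Each CL was 1 animal, the tissue was taken whole, and libraries were made from total RNA, so every value is a mixture of all the cells of the gland. The comparison asks how luteal mRNA differs between the end of an estrous cycle and the same day of early pregnancy, when the CL is rescued from regression.

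A cell that leaves quiescence first makes D cyclins, which activate the kinases CDK4 and CDK6 and release E2F transcription factors. E2F then drives cyclin E and the genes that license and copy DNA, among them the MCM helicase subunits, CDC6 and PCNA. A later group of genes builds the spindle, attaches chromosomes and triggers their separation, and these mRNA are made mainly in late S phase, G2 and mitosis, so their abundance in a tissue is commonly read as a measure of dividing cells. In the mature CL the large steroidogenic cells are differentiated and do not divide, while endothelial and other stromal cells can. The genes are therefore described here in their order in the cycle as G1 entry (5 mRNA), G1/S (10), S phase and licensing (13) and mitotic (20).

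Reads recovered from the normalized counts and summed over the 13861 mRNA numbered 42770725 to 48294165 per CL. The mRNA for STAR, which carries cholesterol into mitochondria, and HSD3B1, which makes progesterone, marked the tissue as luteal in all 8 CL, with STAR at 496165 to 1055020 normalized counts and HSD3B1 at 407776 to 675386 normalized counts. By a rule set after the values were seen (over 3 times the next highest CL and over 50 normalized counts), 25 mRNA stood apart in cyclic replicate 1, 24 in cyclic replicate 2 and 3 to 11 in each of the other 6 CL. Of the 48 log2 fold changes between the groups, leaving out cyclic replicate 2 brought 26 nearer to 0 by over 1.5 times and turned the sign of 7. Leaving out pregnant replicate 2 brought 21 nearer to 0 by as much and turned 4. Without cyclic replicate 1, 15 were farther from 0 by as much, 2 nearer and 3 turned. The log2 fold changes of the members without cyclic replicate 2 are therefore given, singly or as a range, where they moved by over 1.5 times. Those without cyclic replicate 1 are mostly not given singly. They ran from -1.39 (UBE2C) to 0.40 (CDK6), against -1.06 (UBE2C) to 0.38 (CCNE2) with all 8 CL.

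None of the 48 cell cycle mRNA passed a limma adjusted p under 0.05, where 3 of all 13861 mRNA did (0.0216%). The lowest adjusted p among the 48 was 0.593. At an unadjusted p under 0.05, limma had 3 lower in pregnancy (PRC1, PCNA and CCND2) and 0 higher, a share to be read against 3.85% lower and 3.66% higher among all mRNA. With the reads recovered from the table, the number at an adjusted p under 0.05 was 0 in edgeR, in DESeq2 and in limma-voom, and the number lower at an unadjusted p under 0.05 was 5 in edgeR, 8 in DESeq2 and 3 in limma-voom. The count of 3 moved to 19 without cyclic replicate 1, to 0 without cyclic replicate 2, to 8 without pregnant replicate 4 and to 5 without either cyclic replicate 4 or pregnant replicate 1. In direction the list was lopsided, since 43 of 48 log2 fold changes were below 0 (median -0.37), where 49.9% of all mRNA were below 0 (median 0.00). A fold change here is the difference of the means of log2(normalized count + 1), pregnant minus cyclic. No single member passed adjustment, so a difference between the groups is not established. If there were one, fewer dividing cells and less of these mRNA in each dividing cell could not be told apart in whole tissue.

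**Figure D1:**
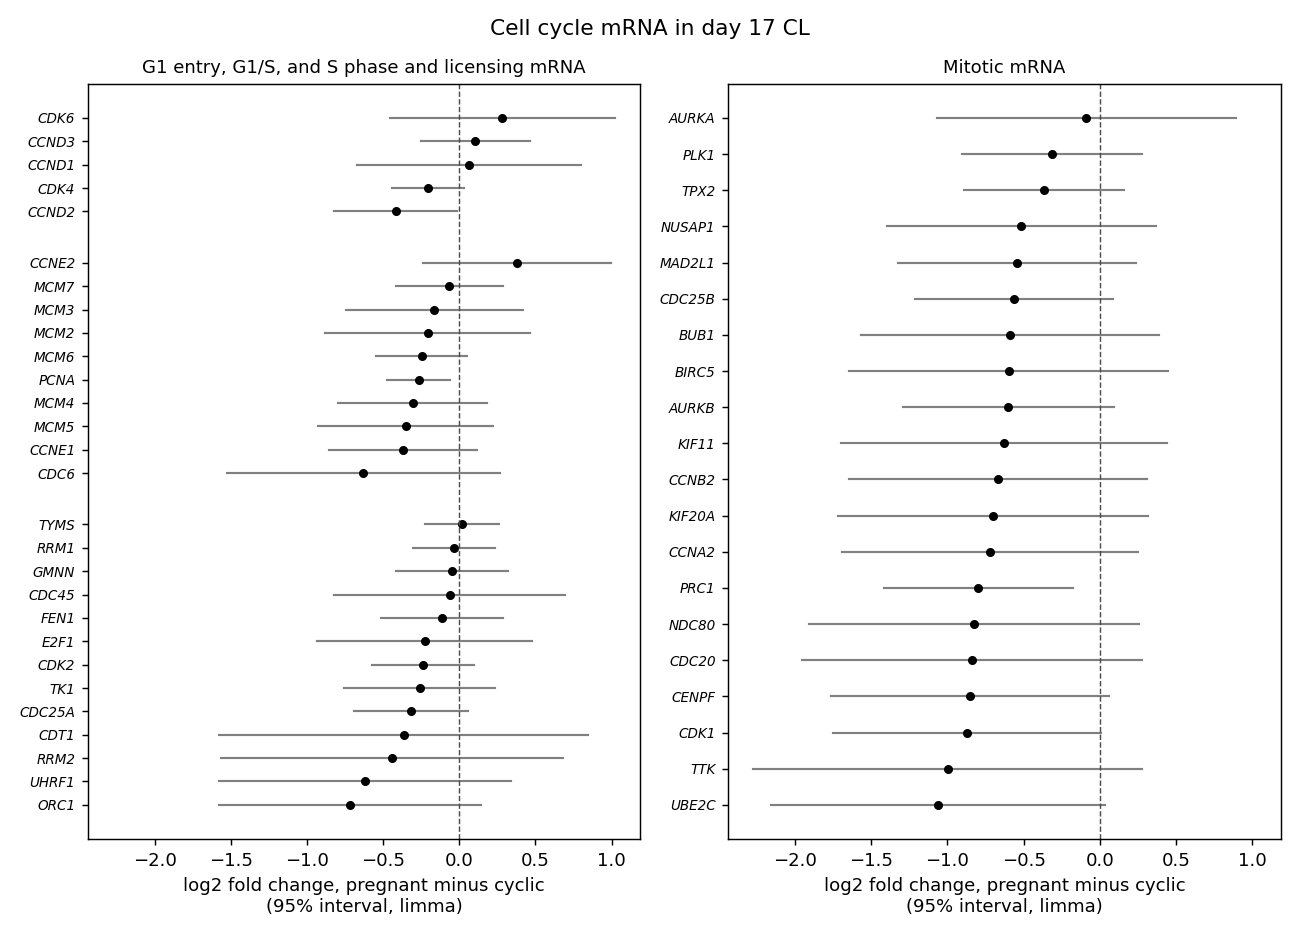
The log2 fold change of each of the 48 cell cycle mRNA (point, pregnant minus cyclic) with its 95% interval from limma (line), grouped on the left as G1 entry, G1/S, and S phase and licensing, and on the right as mitotic. All 20 mitotic points lie below 0, from -1.06 for UBE2C to -0.09 for AURKA, and the intervals of 3 mRNA, CCND2, PCNA and PRC1, do not reach 0.

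The 5 G1 entry mRNA had no common direction, with 2 below 0 and 3 above (median 0.06). CCND1, cyclin D1, had 653, 1116, 1420 and 2469 normalized counts in cyclic CL and 1412, 1073, 1451 and 1382 in pregnant CL. The cyclic CL thus took both the lowest and the highest value of this cyclin, and its log2 fold change was 0.06 (SE 0.33). CCND2 (ENSBTAG00000016649), cyclin D2, a cyclin of proliferating granulosa cells in rodents, had 807, 1065, 890 and 591 normalized counts in cyclic CL and 665, 569, 682 and 548 in pregnant CL. Only cyclic replicate 4 lay among the pregnant CL. This gave a log2 fold change of -0.42 (SE 0.18), with a limma unadjusted p = 0.0426 and adjusted p = 0.647. Without cyclic replicate 2, that of CCND2 was -0.29.

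CCND3, cyclin D3, ran from 8501 to 13199 normalized counts in cyclic CL and from 9953 to 14703 in pregnant CL, with a log2 fold change of 0.11 (SE 0.16). The partner kinases went in opposite directions. CDK4 had 3897 ± 511 normalized counts (SD, n = 4) in cyclic CL and 3358 ± 192 in pregnant CL, a log2 fold change of -0.21 (95% interval -0.44 to 0.03), and CDK6 had 250 ± 63.6 and 318 ± 123, a log2 fold change of 0.28 (95% interval -0.46 to 1.02). The log2 fold changes without cyclic replicate 2 were 0.00188 for CCND1, 0.17 for CCND3 and 0.0864 for CDK6. Without cyclic replicate 1, in which CCND1 and CCND3 were lowest, the median of the 5 was -0.24, and with all 8 CL it was -0.0911 in edgeR and -0.0897 in DESeq2, so the median had no stable sign.

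The G1/S mRNA leaned lower in pregnancy, 9 of 10 having a log2 fold change below 0 (median -0.26), but their groups overlapped in all but PCNA. PCNA (ENSBTAG00000006065), the sliding clamp that holds DNA polymerase on its template, had 2287, 2709, 2298 and 2286 normalized counts in cyclic CL and 1840, 1965, 2009 and 2142 in pregnant CL. Every pregnant CL was below every cyclic CL. That was a log2 fold change of -0.27 (SE 0.09, 95% interval -0.47 to -0.06, limma unadjusted p = 0.0174, adjusted p = 0.593). Of the 48 mRNA, 2 had groups that did not overlap with pregnancy lower (PCNA and PRC1) and 0 with pregnancy higher, where 2.27% and 2.03% of all mRNA did. The difference in PCNA was -0.21 without cyclic replicate 2 (limma unadjusted p = 0.0504).

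The MCM2 to MCM7 proteins form the ring-shaped helicase that unwinds DNA at replication forks. MCM5 had 825, 2077, 1028 and 957 normalized counts in cyclic CL and 823, 775, 1039 and 955 in pregnant CL. Cyclic replicate 2 stood above the other 7 CL, which were intermixed. MCM3 showed the same arrangement, with 610, 1688, 932 and 938 normalized counts in cyclic CL and 951, 725, 905 and 918 in pregnant CL.

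MCM4 (615, 1331, 827 and 956 normalized counts against 816, 586, 740 and 782) and MCM7 (1901, 3235, 2401 and 2114 against 2188, 2042, 2536 and 2303) were also highest in cyclic replicate 2. MCM6 varied less, from 1693 to 2199 normalized counts in cyclic CL and from 1313 to 1880 in pregnant CL. The log2 fold changes of these 5 subunits ran from -0.35 (SE 0.26) for MCM5 to -0.06 (SE 0.16) for MCM7, and without cyclic replicate 2 they were 0.10 for MCM3, -0.12 for MCM4, -0.0643 for MCM5, -0.16 for MCM6 and 0.0864 for MCM7. The row with the symbol MCM2 (ENSBTAG00000014380), at 51.8 to 105 normalized counts, carries the description of cyclin L1, which has a row of its own, so its identity is uncertain. Its log2 fold change was -0.21 (SE 0.30), and -0.0669 without cyclic replicate 2. Leaving the row out moved the G1/S median to -0.27.

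The E cyclins, which bind CDK2 to start S phase, parted. CCNE2 was the single G1/S mRNA above 0, with 190, 384, 240 and 411 normalized counts in cyclic CL and 401, 500, 364 and 284 in pregnant CL (log2 fold change 0.38, SE 0.28). CCNE1 had 217 ± 26.7 normalized counts (SD, n = 4) in cyclic CL and 171 ± 42.4 in pregnant CL (log2 fold change -0.37, SE 0.22). These were 2 of the 3 G1/S mRNA that were not highest in cyclic replicate 2, the third being the row named MCM2. CDC6, which loads the helicase, had 52.2, 161, 92.9 and 116 normalized counts in cyclic CL and 77.7, 41.8, 100 and 47.3 in pregnant CL (log2 fold change -0.63, 95% interval -1.53 to 0.27), and -0.39 without cyclic replicate 2.

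In the S phase and licensing group, 12 of 13 log2 fold changes were below 0 (median -0.24) and no unadjusted p was under 0.0886. ORC1, a subunit of the complex that marks replication origins, had the lowest log2 fold change, -0.72 (95% interval -1.58 to 0.14). It had 41.3, 160, 83.0 and 82.4 normalized counts in cyclic CL and 61.4, 42.8, 53.4 and 43.0 in pregnant CL, so that 1 cyclic CL was below the pregnant CL and the other 3 were above them. UHRF1, which guides DNA methylation on newly copied DNA, had 220, 814, 351 and 424 normalized counts in cyclic CL and 368, 132, 386 and 251 in pregnant CL (log2 fold change -0.62, SE 0.43). Without cyclic replicate 2 the log2 fold changes were -0.40 for ORC1 and -0.28 for UHRF1.

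E2F1, the transcription factor of S phase entry, stood at 555 normalized counts in cyclic replicate 2 but at only 162 to 283 elsewhere, and its log2 fold change went from -0.23 to 0.0914 without that CL. RRM2, the regulated subunit of the enzyme that makes deoxynucleotides, ran from 31.8 to 139 normalized counts, while RRM1, its larger partner, ran only from 2390 to 3351. TYMS (1310 to 1788 normalized counts), which makes thymidylate, and RRM1 had log2 fold changes of 0.02 (SE 0.11) and -0.03 (SE 0.12). The remaining members, CDK2, CDC25A, CDC45, CDT1, GMNN, TK1 and FEN1, had log2 fold changes from -0.36 to -0.05, with CDT1 at as few as 4 reads in pregnant replicate 2. Without cyclic replicate 2 the log2 fold changes were 0.0589 for RRM1 and 0.10 for TYMS and ran from -0.29 (CDC25A) to 0.15 (CDC45) in the remaining members. Without cyclic replicate 2 the median of the 13 was -0.09, without pregnant replicate 2 it was -0.10, and without cyclic replicate 1 it was -0.42.

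The mitotic mRNA had the lowest fold changes of the 4 groups of genes and the widest spread between animals. All 20 had a log2 fold change below 0, with a median of -0.65, against -0.26 for G1/S. PRC1 (ENSBTAG00000018643), which bundles the microtubules of the central spindle, had 972, 1103, 673 and 706 normalized counts in cyclic CL and 672, 287, 640 and 451 in pregnant CL. The groups did not overlap, but the lowest cyclic and the highest pregnant CL differed by less than 1 normalized count, 673.1 against 672.4. The log2 fold change of PRC1 was -0.80 (SE 0.28, 95% interval -1.42 to -0.18, limma unadjusted p = 0.0169, adjusted p = 0.593), moving to -0.54 when pregnant replicate 2 was left out and to -0.67 when cyclic replicate 2 was.

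UBE2C and CDC20 act with the anaphase-promoting complex, which destroys cyclin B so that a cell can leave mitosis. UBE2C (ENSBTAG00000016746) had 322, 1458, 518 and 656 normalized counts in cyclic CL and 410, 127, 382 and 417 in pregnant CL, a log2 fold change of -1.06 (95% interval -2.16 to 0.04). CDC20 had 141, 697, 259 and 309 normalized counts in cyclic CL and 262, 74.6, 197 and 199 in pregnant CL, a log2 fold change of -0.84 (95% interval -1.95 to 0.28). In both, cyclic replicate 2 was the highest CL, pregnant replicate 2 was the lowest, and cyclic replicate 1 was below the other 3 pregnant CL. Without cyclic replicate 2 the log2 fold changes were -0.66 for UBE2C and -0.43 for CDC20.

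The mRNA for CDK1 (ENSBTAG00000010109), whose activation drives a cell into mitosis, had 89.1, 208, 108 and 143 normalized counts in cyclic CL and 107, 39.8, 108 and 53.7 in pregnant CL (log2 fold change -0.87, 95% interval -1.75 to 0.01). Its cyclins followed it. CCNA2, cyclin A2, had 161, 580, 242 and 312 normalized counts in cyclic CL and 275, 92.6, 249 and 149 in pregnant CL, and CCNB2, cyclin B2, had 130, 542, 282 and 206 in cyclic CL and 229, 94.6, 224 and 132 in pregnant CL. The log2 fold changes were -0.72 (SE 0.44) for CCNA2 and -0.67 (SE 0.44) for CCNB2, and -0.39 and -0.30 without cyclic replicate 2. CDC25B, a phosphatase that activates CDK1, had 606 ± 158 normalized counts (SD, n = 4) in cyclic CL and 423 ± 152 in pregnant CL.

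**Figure D2:**
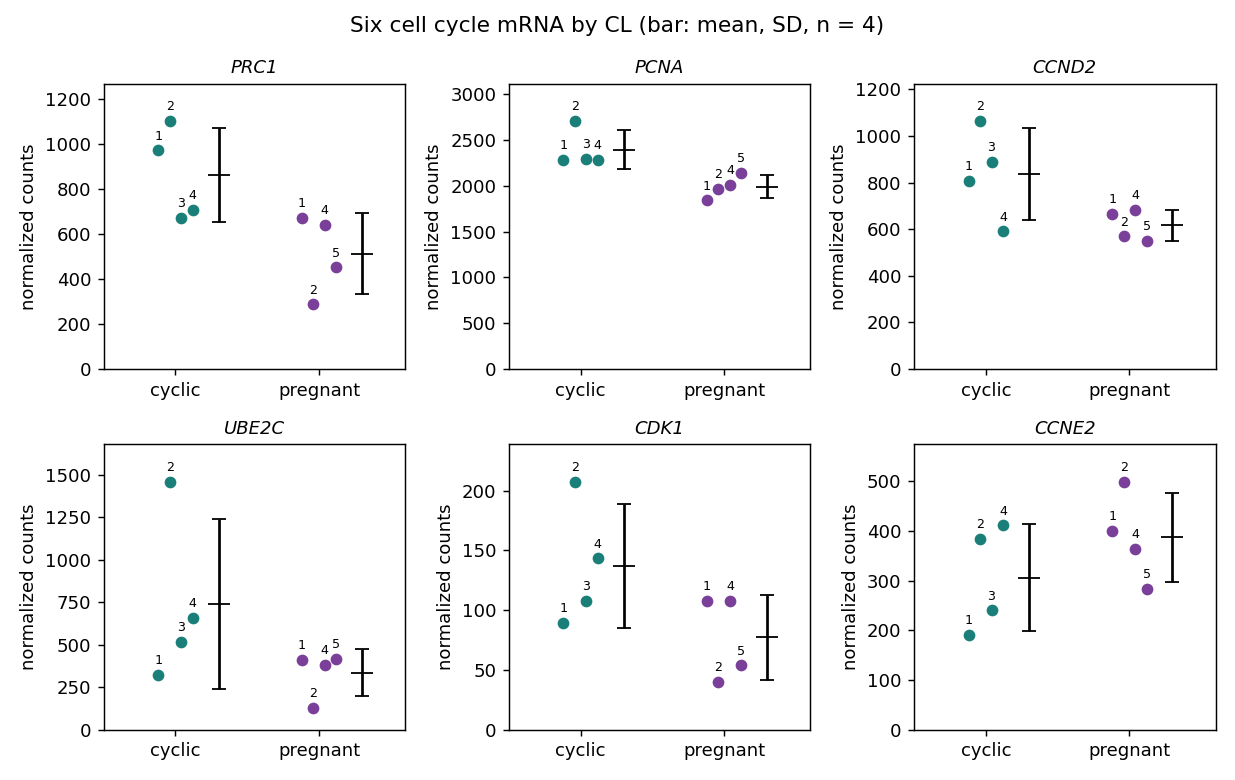
Normalized counts of 6 cell cycle mRNA in each CL (points, labelled with the replicate number), with the mean and SD of each group of 4 (bars). The groups of PCNA and PRC1 do not overlap, cyclic replicate 2 is highest in all but CCNE2, and pregnant replicate 2 is lowest in PRC1, UBE2C and CDK1.

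Kinases and proteins of the spindle and its checkpoint were likewise highest in cyclic replicate 2. AURKB, the kinase that corrects chromosome attachment, had 217, 582, 288 and 328 normalized counts in cyclic CL and 175, 186, 324 and 213 in pregnant CL (log2 fold change -0.60, SE 0.31). AURKA, which acts at the spindle poles, had 73.9, 409, 154 and 204 in cyclic CL and 191, 126, 193 and 160 in pregnant CL (log2 fold change -0.09, SE 0.44). These were, without cyclic replicate 2, -0.33 for AURKB and 0.32 for AURKA. AURKA was the single mitotic mRNA lowest in cyclic replicate 1, and AURKB the single one lowest in pregnant replicate 1.

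The checkpoint kinase TTK (log2 fold change -0.996, SE 0.57), the kinetochore protein NDC80 (-0.82, SE 0.49) and CENPF, a protein of the outer kinetochore (-0.85, SE 0.41), had wide errors, and that of NDC80 was -0.55 without cyclic replicate 2. TTK and CENPF had 3.98 and 9.95 normalized counts in pregnant replicate 2, or 4 and 10 reads. The other mitotic mRNA, BUB1, MAD2L1, PLK1, BIRC5, KIF11, KIF20A, TPX2 and NUSAP1, had log2 fold changes from -0.70 to -0.31 and unadjusted p from 0.151 to 0.262, and log2 fold changes from -0.43 (KIF20A) to -0.0634 (PLK1) without cyclic replicate 2.

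The same CL took the highest and, in most members, the lowest value of the mitotic mRNA, while the order between these ends varied (cyclic replicate 1 was second highest in PRC1 and lowest in AURKA). Cyclic replicate 2 was the highest CL in 20 of 20 mitotic mRNA, where it was the highest in 14.2% of all mRNA. Pregnant replicate 2 was the lowest in 18 of 20, where it was the lowest in 12.8% of all mRNA. Both held together in 18 of the 20 and in 2.8% of all mRNA. The mRNA share their libraries, so this is 1 pattern of 2 animals rather than 20 separate ones.

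Summed over the 20 mRNA, the mitotic level was 5259, 14333, 7285 and 8488 normalized counts in cyclic CL and 7084, 3209, 7052 and 5350 in pregnant CL. The highest CL had 4.47 times the level of the lowest, where the ratio was 1.68 for G1/S, 1.56 for S phase and licensing and 1.47 for G1 entry. The 6 CL between these 2 extremes ran from 5259 to 8488 normalized counts, with the 3 cyclic and the 3 pregnant ones intermixed. For the single mRNA, the median ratio of the highest to the lowest CL was 5.64 in the mitotic group, 2.15 in G1/S, 2.10 in S phase and licensing and 1.94 in G1 entry, where it was 1.73 over all mRNA.

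**Figure D3:**
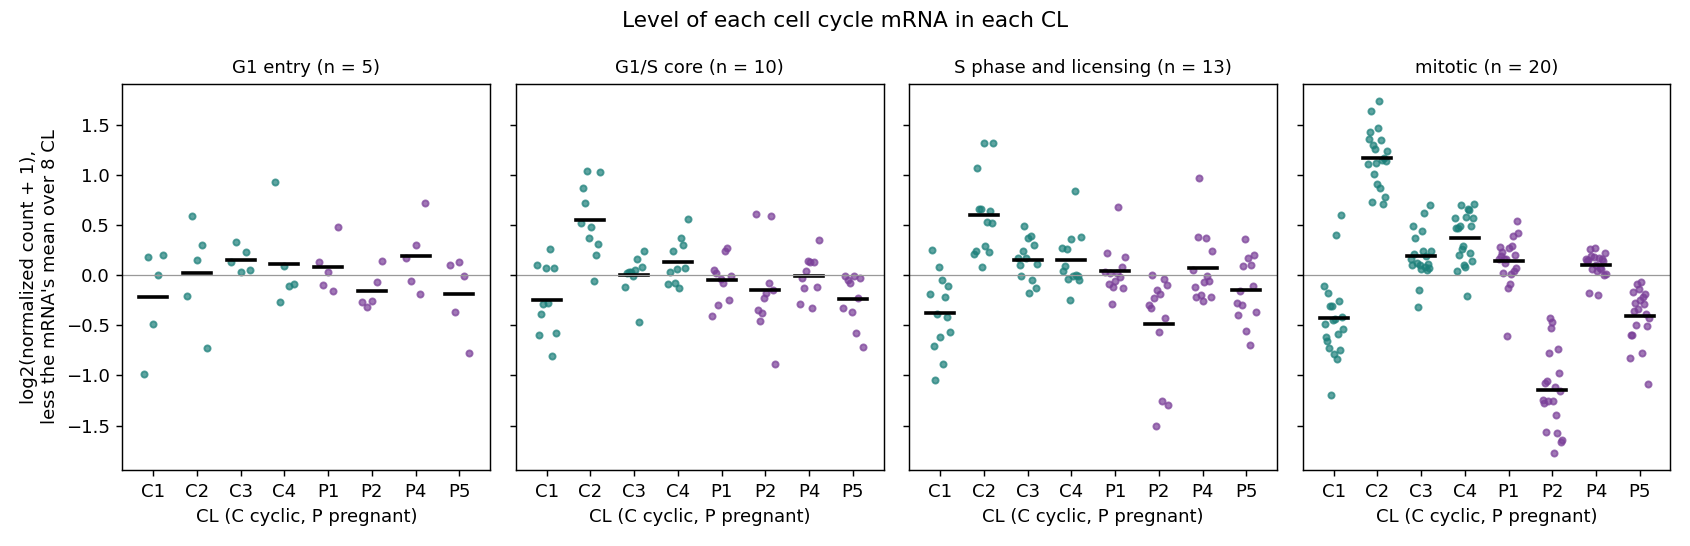
The log2(normalized count + 1) of each cell cycle mRNA (points) in each CL, less the mean of that mRNA over the 8 CL, with the mean of the group of genes as a black line. In the mitotic panel the mean is 1.17 in cyclic replicate 2 and -1.15 in pregnant replicate 2 and lies between -0.43 and 0.37 in the other 6 CL.

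The G1/S and S phase groups shared the upper end of this order more than the lower. Cyclic replicate 2 was the highest CL in 7 of 10 G1/S mRNA and in 8 of 13 S phase and licensing mRNA, and pregnant replicate 2 was the lowest in 3 of 10 and in 6 of 13. Relative to the median of the 8 CL, the typical mRNA in cyclic replicate 2 was 2.17-fold in the mitotic group, 1.497-fold in G1/S and 1.44-fold in S phase and licensing. In pregnant replicate 2 the same ratio was 0.404, 0.862 and 0.775. In the G1 entry group cyclic replicate 2 was highest in 2 of 5 and pregnant replicate 2 lowest in 0 of 5.

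Cyclic replicate 2 and pregnant replicate 2 were the highest and the lowest CL of most mitotic mRNA. Leaving them out therefore had to raise the log2 fold changes of those mRNA, so the direction of that move is not a result. With these 2 CL left out, an alternative chosen after the data were seen, the medians moved close to 0. The mitotic median was -0.07 with 14 of 20 below 0, the G1/S median -0.07 with 6 of 10 below 0, and the S phase and licensing median 0.04 with 3 of 13 below 0. The share of all mRNA below 0 was then 51.1%. PRC1 had a log2 fold change of -0.42 (limma unadjusted p = 0.0903) and PCNA one of -0.20 (limma unadjusted p = 0.0868) without them, and 0 of the 48 had an unadjusted p under 0.05. Leaving out cyclic replicate 2 alone gave a mitotic median of -0.36 and pregnant replicate 2 alone one of -0.39, while leaving out cyclic replicate 1, the lowest of the cyclic CL, gave -0.95.

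**Figure D4:**
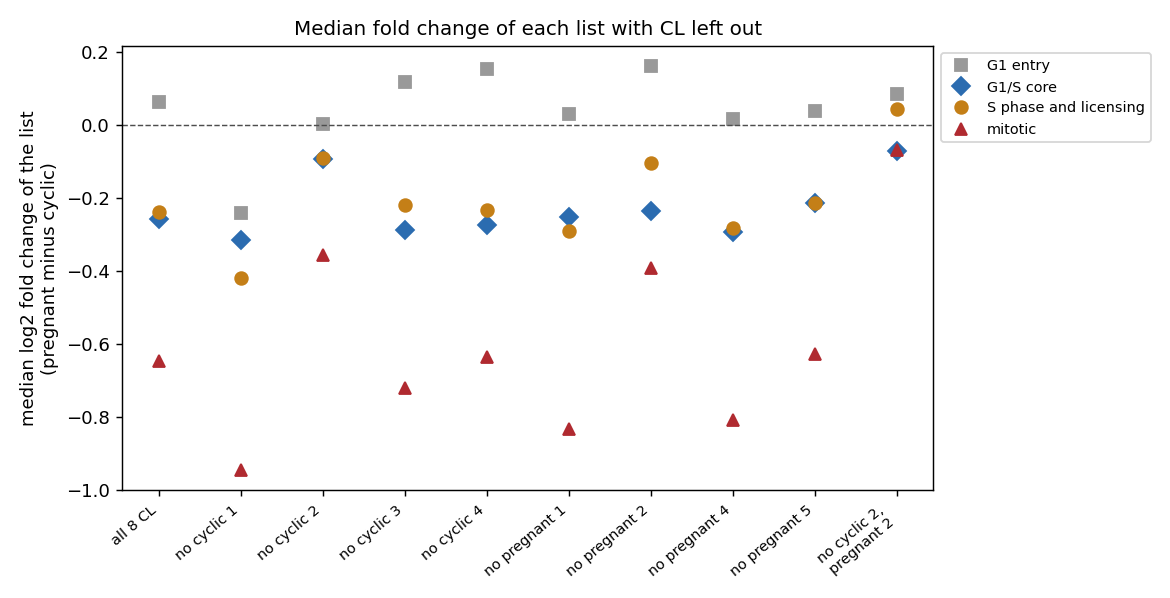
The median log2 fold change (pregnant minus cyclic) of each group of cell cycle mRNA with all 8 CL and with CL left out as named on the horizontal axis. The mitotic median runs from -0.95 without cyclic replicate 1 to -0.07 without cyclic replicate 2 and pregnant replicate 2. This pair was chosen after the data were seen, as the highest and the lowest CL of most mitotic mRNA.

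Other genes of the pathway, taken as 3 further lists, had medians closer to 0 than the 20 mitotic mRNA. Of 55 further mitotic mRNA, 50 were below 0 (median -0.43), 1 had an unadjusted p under 0.05 in limma and 0 passed adjustment. A count of 1 in a list of 55, 52 or 42 is no larger a share than the 3.85% of all mRNA that were lower at that p, so the mRNA named from these lists are given for description. That 1 was CENPM, a centromere protein, with 266, 567, 285 and 311 normalized counts in cyclic CL and 253, 187, 232 and 257 in pregnant CL. The pregnant CL were all below the cyclic ones (log2 fold change -0.56, SE 0.25, limma unadjusted p = 0.0490, adjusted p = 0.659). Cyclic replicate 2 was highest in 48 of the 55 and pregnant replicate 2 lowest in 34, and without both of them the median was -0.02.

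GTSE1 and DLGAP5, proteins of the mitotic spindle, had log2 fold changes of -0.95 (SE 0.49) and -0.90 (SE 0.46). ZWILCH, a kinetochore protein of the spindle checkpoint, was on the other side of 0, with 2320, 1872, 1669 and 1645 normalized counts in cyclic CL and 2794, 2420, 3002 and 1714 in pregnant CL (log2 fold change 0.39, SE 0.18, adjusted p = 0.668 in limma). CKAP5, a microtubule polymerase, and BUB3, a checkpoint protein, had log2 fold changes of 0.05 (SE 0.09) and -0.01 (SE 0.09).

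Of 52 further replication and repair mRNA, 41 were below 0 (median -0.13) and 1 had an unadjusted p under 0.05, DBF4, the activating partner of the kinase CDC7 that fires replication origins. DBF4 had 478, 460, 345 and 399 normalized counts in cyclic CL and 304, 282, 390 and 245 in pregnant CL (log2 fold change -0.47, SE 0.18, limma unadjusted p = 0.0288, adjusted p = 0.622). In contrast to the mitotic mRNA it was highest in cyclic replicate 1, as was CDC7 (log2 fold change -0.25, SE 0.12). GINS1 and GINS4, subunits of the replicative helicase complex, had log2 fold changes of -0.38 (SE 0.17) and -0.40 (SE 0.19). GINS4 did not overlap between the groups, with 235 to 368 normalized counts in cyclic CL and 190 to 234 in pregnant CL. CHEK2, a DNA damage checkpoint kinase singled out after its values were seen, did not overlap in the other direction, with 305 to 360 normalized counts in cyclic CL and 371 to 447 in pregnant CL (log2 fold change 0.27, SE 0.14). RPA1, which coats single-stranded DNA, and DNMT1, the maintenance DNA methyltransferase, had log2 fold changes of 0.04 (SE 0.08) and -0.14 (SE 0.12).

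The third list held CDK inhibitors and other quiescence genes together with other regulators of the cycle, among them CDC25C and SKP2, which promote it, and subunits of the anaphase-promoting complex. Of its 42 mRNA, 24 were below 0 (median -0.01). The 1 with an unadjusted p under 0.05 was ANAPC5, a subunit of the anaphase-promoting complex, with 3898, 3636, 4599 and 4354 normalized counts in cyclic CL and 3702, 3262, 3399 and 3182 in pregnant CL (log2 fold change -0.28, SE 0.10, limma unadjusted p = 0.0165, adjusted p = 0.593). FBXO5, which restrains that complex and is itself made in dividing cells, had a log2 fold change of -0.71 (SE 0.35) and was highest in cyclic replicate 2 and lowest in pregnant replicate 2. CCNC, cyclin C, had one of -0.19 (SE 0.10) and the antiproliferative gene BTG1 one of -0.24 (SE 0.14).

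CDKN1C, the CDK inhibitor p57, varied 13.1-fold between animals, with 8036, 13599, 1718 and 3584 normalized counts in cyclic CL and 6330, 5587, 1036 and 11657 in pregnant CL (log2 fold change -0.16, SE 0.78). Cyclic replicate 2, the CL with the most mitotic mRNA, also had the most CDKN1C. The spread of CDKN1C lay within both groups.

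Markers of other cells moved with the extremes of the mitotic order in part. Of the 4 granulosa and theca markers in the table, the summed level was 1821 to 4289 normalized counts in cyclic CL and 2313 to 2870 in pregnant CL, with cyclic replicate 2 highest. Only 1 of the 4, AMH, was highest in that CL, and the rank of that CL in the sum rested on AMH. AMH, a hormone of the granulosa cells of growing follicles, reached 1891 normalized counts in cyclic replicate 2 against 68.8 to 190 in the rest. INHA, the inhibin alpha subunit, was at 11830 in that CL, at 4103 to 5479 in the other cyclic CL and at 2301 to 3303 in pregnant CL, so it was also lower in each pregnant CL than in each cyclic one (log2 fold change -1.07, SE 0.30, limma unadjusted p = 0.00475, adjusted p = 0.508). Both were picked from their lists because of these values, AMH from the granulosa and theca list and INHA from the list of steroidogenic markers. INHA was the only 1 of the 10 steroidogenic markers that was highest in cyclic replicate 2, and 7 of the 10 had a log2 fold change above 0. FSHR, the follicle-stimulating hormone receptor of granulosa cells, was not raised in that CL, with 330 normalized counts against 265 to 422 in the other cyclic CL. At 126 to 264.7 in pregnant CL, FSHR did not overlap the cyclic CL, of which the lowest had 264.98 (log2 fold change -0.77, limma unadjusted p = 0.0133, adjusted p = 0.587). FOXL2 and CYP19A1 were at 1111 and 956 against 785 to 1672 and 549 to 1039. The part of these cells in the mitotic level of cyclic replicate 2 was not tested.

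Macrophage markers were lowest in pregnant replicate 2 in 7 of 10 and in cyclic replicate 1 in 3 of 10, the 2 CL lowest in mitotic mRNA. At the upper end they were highest in pregnant replicate 4 in 6 of 10 and in cyclic replicate 2 in 1 of 10. Their summed level was 8870 to 14652 normalized counts in cyclic CL and 8536 to 17940 in pregnant CL. Endothelial markers, 14 of 14 in the table, were lowest in pregnant replicate 2 in 8, with a summed level of 144858 to 167370 normalized counts in cyclic CL and 132439 to 178877 in pregnant CL. They were highest in cyclic replicate 2 in 0 of 14. Over all mRNA, cyclic replicate 1 was lowest in 15.1% and pregnant replicate 2 in 12.8%. Cyclic replicate 2 was highest in 14.2% of all mRNA and pregnant replicate 4 in 12.6%. T and NK cell markers were lowest in cyclic replicate 1 in 9 of 12, and their summed level was 1785 to 3085 normalized counts in cyclic CL and 3116 to 3971 in pregnant CL, the opposite direction to the mitotic mRNA. The 9 fibroblast markers were all below 0 in log2 fold change (median -0.18), with summed levels of 684608 to 1050270 and 644059 to 822017 normalized counts. The 10 steroidogenic markers had summed levels of 1552810 to 1863520 and 1686040 to 2406330, the 8 pericyte and smooth muscle markers 73141 to 87127 and 68822 to 95077, the 4 B cell markers 108 to 267 and 163 to 225, and the single blood marker, AHSP, 9.88 to 57.9 and 9.95 to 22.1. The part of each cell type in the cell cycle levels was not tested.

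**Figure D5:**
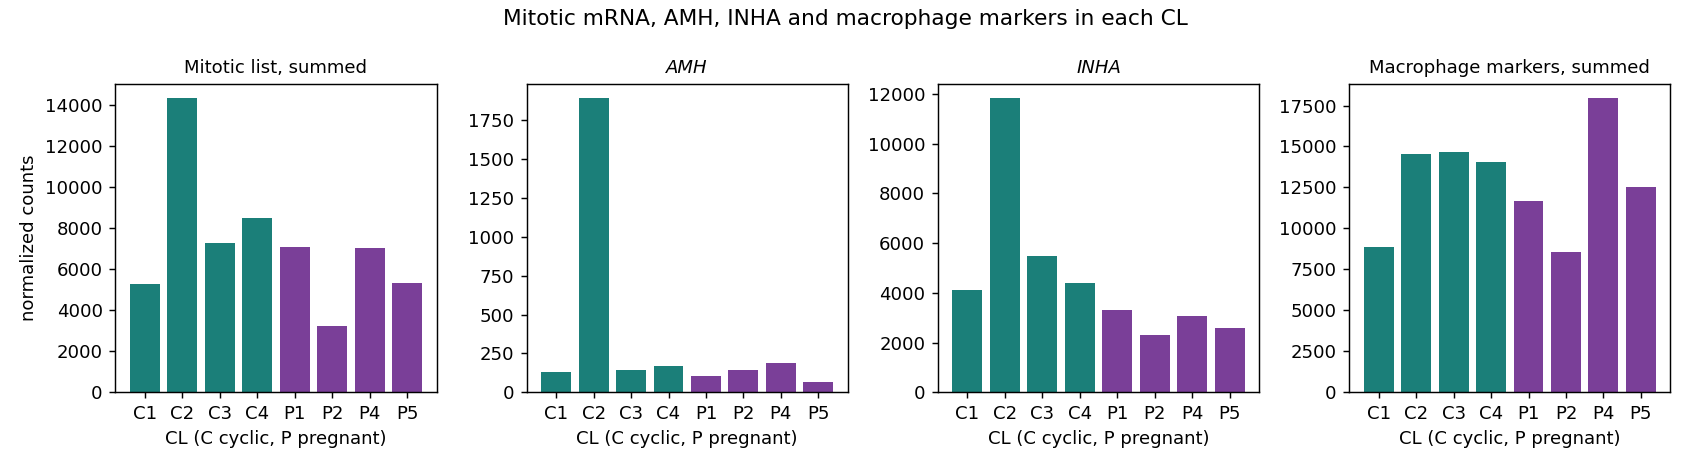
Normalized counts in each CL (C cyclic in green, P pregnant in purple) of the 20 mitotic mRNA summed, of AMH, of INHA and of the 10 macrophage markers summed. AMH and INHA were picked for their values, each the only marker of its list (4 granulosa and theca, 10 steroidogenic) highest in cyclic replicate 2. Endothelial markers, highest there in 0 of 14, are not drawn. Cyclic replicate 2 is highest in the first 3 panels (14333, 1891 and 11830), and pregnant replicate 2 is lowest in the mitotic (3209) and macrophage (8536) panels. Pregnant replicate 4 is highest in the macrophage panel (17940).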

How the data were processed

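Total RNA of 8 snap-frozen CL was sequenced from strand-specific libraries, and 1 table of 13861 mRNA was analysed. Its values are signal: the authors divided the reads of each mRNA by 1 factor per CL before they deposited the table (normalized counts). The aligner, the counting and the genome build were not given in the sources used here, and no coordinates are printed. Reads were recovered as multiples of the smallest value of each CL, and 99.9% of values came out whole to within 0.01 (42770725 to 48294165 reads per CL). The smallest value of each CL was taken as 1 read. No 0 was recorded, so whether this value stands for 1 read or for none cannot be told. Even numbers made up 71.4 to 77.2% of the read numbers between 2 and 9. No library was a copy of another (chi-square of at least 61.0 per degree of freedom for each pair of CL).

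Since the table held normalized values and not raw counts, for which edgeR had been named, limma 3.58.1 (R 4.3.3) with a trend was applied to log2(value + 1) over all 8 CL with no covariate, Benjamini-Hochberg adjustment over the 13861 mRNA with a mean of at least 1 and a threshold of 0.05, and 95% intervals. Lists are described by counts and medians beside all mRNA. The members and lists were chosen with earlier results of these data known. All members may be named, as may the 4 mRNA with the smallest p and the 2 with the highest mean of each further list and the 2 with the highest mean of each marker list. Of the further lists, 55 of 60, 52 of 58 and 42 of 52 genes were in the table. Of the markers, ACTA2, NOTCH3 and CYP17A1 were among those not analysed here.

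Alternatives were quantile normalization, no filter, a filter at a mean of 5, a pseudocount of 0.1 or of 0.5, a block for the replicate number, edgeR 4.0.16, DESeq2 1.42.0 and limma-voom on the recovered reads, each CL left out, an adjusted p under 0.10 and an unadjusted p under 0.01. The main filter removed no mRNA, so the alternative with no filter was the same fit. Leaving out cyclic replicate 2 with pregnant replicate 2, and leaving out the row named MCM2, were added after the data were seen. The fit was tested on simulated counts. Sequences of promoters and proteins were not used here. Python 3.11.15, numpy 2.4.6, pandas 2.3.3 and matplotlib 3.10.9 were used.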

Additional observations from a re-analysis of the deposited data

Results flagged for a closer look

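In each group of 4 CL, the highest and the lowest value of every cell cycle mRNA and of the 4 summed groups were compared with the nearest other value by Dixon's ratio at its 95% critical value. Of 104 groups of 4 values, 7 had such a far CL, where chance gives about 1 in 20. Cyclic replicate 2 was far above the other cyclic CL in MCM5 (2077 normalized counts), PCNA (2709) and FEN1 (665), the last a nuclease that trims DNA flaps at replication. Pregnant replicate 2 was far below the other pregnant CL in UBE2C (127 normalized counts) and far above them in the row with the symbol MCM2 (105). Pregnant replicate 5 was far above the other pregnant CL in GMNN, geminin, an inhibitor of repeated licensing (664 normalized counts). Cyclic replicate 1 was far below the other cyclic CL in the summed G1 entry mRNA (13876 normalized counts). Most of that sum was CCND3 (8501). CCND1 and CCND3 were lowest of the cyclic CL there, while CCND2, CDK4 and CDK6 were not.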

How the results depend on the processing

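The number of cell cycle mRNA with an adjusted p under 0.05 was 0 in each direction under all alternatives run, adjusted p under 0.10 included. At an unadjusted p under 0.05, the number lower in pregnancy (3) was 1 with the replicate block, 5 in edgeR, 8 in DESeq2, 0 without cyclic replicate 2 and pregnant replicate 2 together and 0 to 19 with single CL left out, and was 0 at an unadjusted p under 0.01. The number higher (0) was 1 with the replicate block and 0 to 1 with single CL left out. The numbers shared by the groups were not taken as pairs of CL. The correlations of the deviations were 0.02, -0.05 and 0.01 for CL of the same number and -0.10 to 0.18 for the others. So few values so near each other cannot decide whether the numbers mark pairs. The block changed no other call of these mRNA. Over all mRNA, the numbers with an adjusted p under 0.05, 2 higher and 1 lower, were 0 and 0 with the block, 39 and 55 in DESeq2, and 0 to 2 and 1 to 3 with single CL left out, and the number higher was 0 in edgeR, in limma-voom and without the pair of CL. At an unadjusted p under 0.01 they were 119 and 124. The G1 entry median was -0.0911 in edgeR and -0.0897 in DESeq2 and ran from -0.24 to 0.16 with single CL left out.

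Signs of some log2 fold changes turned, those of PLK1, MCM5, RRM2, CDT1 and UHRF1 from main values of -0.31 to -0.62. Without the pair of CL, 18 of the 48 members turned, among them 9 of 13 S phase and licensing and 6 of 20 mitotic mRNA. The pair was the highest and the lowest CL of most mitotic mRNA, so leaving it out had to raise their log2 fold changes. CDC45 and FEN1 turned as well, to 0.15 and 0.0385 without cyclic replicate 2. The turned log2 fold changes printed next are therefore not all of them. Without the pair of CL they were 0.44 for AURKA, 0.0404 for PLK1, 0.19 for MCM3, 0.00310 for MCM5, 0.14 for MCM7, 0.0438 for UHRF1, 0.00337 for RRM2, 0.24 for CDT1, 0.0516 for E2F1, 0.12 for RRM1, 0.0128 for GMNN and 0.21 for CDKN1C. With single CL left out they ran from -0.50 to 0.32 for AURKA, -0.39 to 0.10 for MCM3, -0.17 to 0.0864 for MCM7, -0.75 to 0.0763 for CDT1, -0.50 to 0.0914 for E2F1, -0.10 to 0.0589 for RRM1, -0.0493 to 0.10 for TYMS, -0.18 to 0.00790 for GMNN, -0.26 to 0.38 for CCND1, -0.0376 to 0.21 for CCND3 and -0.69 to 0.55 for CDKN1C. TYMS was -0.0222 with the block, and CCND1 was -0.0911 in edgeR and -0.0897 in DESeq2. The cause was not tested. No member stood on more than 1 row, so summing rows of a symbol could give no other value. With 4 CL in a group, the 95% intervals of the mitotic mRNA were wide, and TTK, CDT1 and CENPF rested on as few as 4 to 10 reads in pregnant replicate 2, a limit of counting that even numbers of reads make coarser.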

Other observations

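Cyclic replicate 2, the CL with the most mitotic mRNA, held other mRNA that were scarce in the rest. In 24 mRNA its value was over 3 times that of the next highest CL and over 50 normalized counts, a rule set after the values were seen. The same rule gave 25 mRNA in cyclic replicate 1 and 3 to 11 in each of the other 6 CL. The 6 given here were picked by hand from the 24 of cyclic replicate 2, and no list of their pathways was examined. IHH, the ligand Indian hedgehog, had 799 normalized counts there and 0.920 to 7.67 in the other 7 CL. HHIP, which binds the ligand and is induced by the pathway, had 184 there and 0.959 to 5.97 in the others. GLI1, a transcription factor that is a standard readout of hedgehog signaling, had 352 there and 20.6 to 86.0 in the others. CXCL14, a chemokine, had 1196 against 13.7 to 79.4, STRA6, a receptor for retinol uptake, 4234 against 118 to 1067, and CARTPT, a peptide of bovine granulosa cells, 82.1 against 0.920 to 26.9. The lower ends of the ranges of IHH, HHIP and CARTPT are the smallest value of their CL, taken as 1 read, and may stand for no read. The values of these 6 mRNA have 1 CL on one side and no replicate, and their relation to the mitotic mRNA was not tested.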
